A study of Mus musculus with 35 samples.

Results

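Gas5 and 6 further small nucleolar RNA (snoRNA) host genes, Snhg1, Snhg3, Snhg5, Snhg6, Snhg8 and Snhg12, were described here over all 15 groups of the series. They are 7 of the 24421 genes listed in each count file. The set was chosen by the measured Gas5 counts, which were lower in clones carrying the NELFB mutant MT194, so every comparison with those clones below is a description without a test. All 7 passed the filter on low counts, among 13805 genes tested in the populations and 13223 in the clones.

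The series measured poly(A) RNA by 50-base single-read sequencing in immortalized mouse embryonic fibroblasts with 1 floxed and 1 null Nelfb allele (Nelfb flox/-). NELFB is a subunit of the negative elongation factor (NELF), which holds RNA polymerase II near promoters. Cell populations carried empty vector (EV), WT NELFB, MT194, MT486 or the double mutant DMT from a pLenti vector and were infected for 7 days with adenovirus expressing Cre and GFP (Ad-Cre) or GFP alone (Ad-GFP), with 2 libraries for each of 10 groups. Clones were single colonies grown after Ad-Cre, with 3 libraries, each a different clone, for each of 5 groups. The clones carried WT, MT194 or MT486 from pLenti, or WT(N48), a WT NELFB labelled WT-ATG-NELFB, or the truncation Δ-C60, both labelled pBabe. The study's methods describe lentiviral infection for these constructs, so the pBabe labels differ from them. Any comparison of a pLenti with a pBabe group changes the labelled vector together with the construct. By the study's methods MT194 is an alanine substitution that lost binding to NELFA and NELFC, and MT486 and Δ-C60 lost binding to NELFE. All groups derive from the Nelfb flox/- cells, and all constructs were expressed ectopically from a virus rather than from the Nelfb locus. By the study's methods Ad-Cre deletes the floxed allele, and the study describes the clones as lacking endogenous Nelfb. Reads assigned to genes ranged from 17969149 to 29080007 per library, with a median of 21092518.

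A snoRNA host gene is transcribed by RNA polymerase II, and its introns hold snoRNAs that are trimmed out and guide chemical modification of ribosomal RNA. The spliced exons of the non-coding hosts carry no conserved long reading frame, and many of these RNAs start with a pyrimidine tract, are loaded on ribosomes and are removed by nonsense-mediated decay. Gas5 was named for its accumulation in growth-arrested fibroblasts, and its RNA can also bind the glucocorticoid receptor. Hosts are therefore known both as sources of snoRNAs and as RNAs whose level follows growth and translation.

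The 7 genes lie on 5 chromosomes of mm10. Gas5 spans chr1:161034422-161038539 on the plus strand and holds 9 annotated snoRNAs. Snhg1 spans chr19:8723475-8726443 on the plus strand and holds 8. Snhg12 (chr4:132308623-132311024, plus strand) holds 4, and Snhg3, on the minus strand of the same chromosome (chr4:132348014-132353686), holds 2. Snhg5 (chr9:88521050-88522929) holds 2, and Snhg6 (chr1:9941959-9944118) and Snhg8 (chr3:123507552-123508404) hold 1 each, all on the minus strand. Snhg6 and Snhg12 are annotated as lincRNA and the others as processed transcripts, and no member codes for protein.

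How these genes were read bears on every value below. The authors aligned with bowtie2, which does not split a read over an intron. The annotated spliced Gas5 transcript with the most exons has 12 exons in 502 bases, 10 of them shorter than a 50-base read, which leaves 36 positions where an unspliced read could start. Snhg1 has 10 exons in 605 bases, 7 of them under 50 bases, and leaves 189 positions. The other 5 leave from 277 positions in Snhg6 to 487 in Snhg5. GENCODE also annotates 20 retained-intron transcripts for Gas5 and 14 for Snhg1. A count for Gas5 or Snhg1 can therefore include reads from sequence that these spliced forms do not hold; their share was not measured, and spliced and intron-retaining RNA could not be separated.

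Promoters of 6 of the 7 genes were found in the RefSeq table (GRCm38.p6), with 2 starts for Gas5. Snhg6 was not matched. The letters TATA, which read the same on both strands, were searched between 45 and 16 bases before the annotated start, a window and motif chosen after the sequences had been seen. They were present at 5 of the 7 member starts and in 6.72% of 32851 promoters. A match describes letters only, and no match says only that they are not in that window. The 5 windows with a match are shown so that the letters and their place can be seen. Each runs 5′ to 3′ from 50 bases before the annotated start, on the strand of the gene, with the matched letters and any direct repeat in capitals.
Gas5 downstream start, chr1:161035116-161035215: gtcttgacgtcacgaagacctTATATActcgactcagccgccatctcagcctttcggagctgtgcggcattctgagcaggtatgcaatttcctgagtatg
Snhg1, chr19:8723437-8723536: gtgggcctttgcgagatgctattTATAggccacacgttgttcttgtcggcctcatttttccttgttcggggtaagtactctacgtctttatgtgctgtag
Snhg5, chr9:88522848-88522947: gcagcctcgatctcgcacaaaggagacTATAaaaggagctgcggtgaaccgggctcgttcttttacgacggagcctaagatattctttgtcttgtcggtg
Snhg8, chr3:123508287-123508386: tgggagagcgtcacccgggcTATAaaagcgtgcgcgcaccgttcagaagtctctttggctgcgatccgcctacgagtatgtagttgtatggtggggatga
Snhg12, chr4:132308628-132308727: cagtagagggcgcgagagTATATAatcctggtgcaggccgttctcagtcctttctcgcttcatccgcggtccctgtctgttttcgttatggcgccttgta
The upstream Gas5 start and the Snhg3 start had no match in the searched stretch. Near their starts the matched windows carry pyrimidine runs. The longest was 9 bases in Snhg1 and Snhg12, a length reached in 7.11% of all promoters, 7 bases in Snhg5 and Snhg8 (17.9%) and 6 bases in Gas5 (28.7%).

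The labels were first checked against Nelfb itself. In EV populations Nelfb fell by 2.67 on the log2 scale after Ad-Cre (SE 0.22, adjusted p = 2.53e-05), from 46.1 and 39.5 to 7.97 and 5.46 CPM (reads of a gene scaled to the size of its library). This and every adjusted p below come from the quasi-likelihood test of edgeR, adjusted after Benjamini and Hochberg over all genes tested. Where a construct was present, Nelfb did not fall alike: it had a log2 change of −0.40 with WT (adjusted p = 0.822), 0.71 with MT194 (adjusted p = 0.0637) and 0.51 with MT486 (adjusted p = 0.234), and rose with DMT (1.48, adjusted p = 5.55e-04). After Ad-Cre it was at 75.9 and 60.5 CPM with WT, 104 and 119 with MT194, 116 and 128 with MT486, and 169 and 208 with DMT, the last called higher than WT (1.47, adjusted p = 0.00240). In the clones it was at 189, 216 and 147 CPM with MT194, 180, 158 and 135 with MT486, and 247, 208 and 218 with Δ-C60. The libraries labelled WT did not share one level: clone 1 had 10.3 CPM and clone 3 had 15.5, against 109 in clone 2. WT clones 1 and 3 therefore went against their label, and the log2 differences of Gas5 from WT clones, and those of all hosts with MT194, are given with and without them. WT(N48) clones had 241, 127 and 56.3 CPM.

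The cells were checked against fibroblast markers too. Col1a1 was at 1572 CPM or more and Vim at 1000 CPM or more in every library, and Fn1 was the most abundant of the 12 markers. Thy1 was at or near 0, with at most 4 reads per library, and Lum reached at most 3.03 CPM in population libraries and 0.246 CPM in clone libraries. Dcn ranged from 0.418 to 678 CPM and Pdgfra from 4.64 to 965 CPM among the clones, against at least 1323 and 847 CPM in the populations. The 14 markers of other cell types summed to between 6.16 and 13.4 CPM in population libraries and between 4.89 and 74.9 in clone libraries, with the neuronal tubulin Tubb3 the most abundant. In the MT194 clones that sum was 51.5, 24.5 and 74.9 CPM, wholly above the WT(N48) clones (17.7, 19.6 and 7.12), while the MT486 clones had 29.1, 29.2 and 63.8, the WT clones 48.9, 23.7 and 56.2, and the Δ-C60 clones 10.4, 22.3 and 4.89. Tubb3 had 584, 293 and 481 reads in the MT194 clones against 281, 242 and 91 with WT(N48). It had 844, 501 and 981 reads with WT, 574, 484 and 1132 with MT486, and 162, 463 and 66 with Δ-C60. High Tubb3 was thus not particular to the MT194 clones. Sox2, a factor of stem and neural progenitor cells, had 101, 5 and 874 reads with MT194 against 22, 14 and 2 with WT(N48). MT486 clone 3 had 54 reads of it, and the highest values came from MT194 clones 1 and 3. Myod1, a muscle determination factor, had 268, 0 and 20 reads there and 0 in the WT(N48) clones. Marker CPM here are scaled to plain library totals and host CPM to TMM-adjusted ones. The part of these markers in the values below was not tested. In bulk RNA a smaller share of cells with a transcript and less of it per cell cannot be told apart.

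Levels between genes were compared per length of merged annotated exons. In the populations the median was 12.4 CPM per kb for Gas5, 12.1 for Snhg5, 11.6 for Snhg3 and 11.0 for Snhg8, so these 4 lay close together. Snhg6 (6.96) and Snhg1 (6.60) followed, and Snhg12 was at 3.13. Per kb of spliced transcript Gas5 stood at 92.7 and Snhg1 at 32.4, which only shows how far the order rests on the length chosen. In the clones Snhg3 (15.1 CPM per kb) had the highest median over all 15 clones, closely followed by Snhg8, and Gas5 (7.34) came sixth of 7. Per kb of spliced transcript Gas5 came first there (55.0). These medians pool groups whose levels differ.

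In the MT194 clones Gas5 had 7.10, 9.68 and 8.81 CPM. The WT clones had 49.3, 40.6 and 34.6 CPM, the WT(N48) clones 32.4, 27.9 and 20.4, the MT486 clones 49.1, 54.4 and 27.6, and the Δ-C60 clones 18.7, 9.85 and 14.8. All 3 MT194 clones lay below all 12 other clones, the nearest being the second Δ-C60 clone. The group means were ordered MT486 (43.7 ± 14.2, SD, n = 3), WT (41.5 ± 7.39), WT(N48) (26.9 ± 6.03), Δ-C60 (14.4 ± 4.43) and MT194 (8.53 ± 1.31). MT486 and WT overlapped, as did MT486 and WT(N48), whereas Δ-C60 clones did not overlap WT(N48) clones. The log2 difference of MT194 was −1.66 against WT(N48), −2.28 against WT and −2.36 against MT486, which is 3.15-fold, 4.86-fold and 5.12-fold lower. Without WT clones 1 and 3 the difference from WT was −2.26.

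The other hosts of 4 or more snoRNAs were lower too. Snhg1, host of 8 snoRNAs, had 7.63, 5.88 and 11.6 CPM with MT194 against 25.8, 27.7 and 19.0 with WT(N48). Its log2 differences were −1.53 from WT(N48), −1.66 from WT and −1.95 from MT486. Snhg12, the host of the H/ACA snoRNAs Snora16a, Snora44 and Snora61 and of Snord99, had 1.86, 4.32 and 2.50 CPM with MT194. Its differences were −1.04, −1.30 and −1.83, and the lowest WT(N48) clone, at 4.45 CPM, stood just above the highest MT194 clone.

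The hosts of 1 or 2 snoRNAs were lower as well. Snhg3 was at 4.92 ± 1.79 CPM with MT194 and 14.8 ± 5.73 with WT(N48) (SD, n = 3), with log2 differences of −1.59, −1.73 and −1.81 from WT(N48), WT and MT486. Snhg5 was at 8.21 ± 1.44 CPM against 22.9 ± 2.34, with differences of −1.48, −1.68 and −2.00. No clone of another group fell into the MT194 range of Snhg5. Snhg8 was at 6.86 ± 1.12 CPM against 21.4 ± 7.50, with differences of −1.64, −0.88 and −1.52. Snhg6 was at 7.25 ± 0.932 CPM against 15.4 ± 5.47, with differences of −1.08, −0.80 and −1.16, and the third WT clone (7.20 CPM) lay inside its MT194 range. Some Δ-C60 clones were as low. Snhg6 had 5.13 CPM in Δ-C60 clone 2, below all MT194 clones, Snhg8 had 7.06 CPM in clone 3, and Snhg12 had 3.33 and 3.80 CPM in clones 2 and 3, within the MT194 ranges. Without WT clones 1 and 3 the differences from WT were −1.78 for Snhg1, −2.02 for Snhg3, −2.01 for Snhg5, −1.09 for Snhg6, −1.30 for Snhg8 and −1.54 for Snhg12, all still lower.

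Counted over the members, MT194 clones lay wholly below WT(N48) clones in 7 of 7 genes. The same was true of 16.4% of all genes tested. Since Gas5 in these clones chose the set, nothing is read from this count. The medians over the 7 genes were −1.53, −1.66 and −1.83, against medians of 0.00, 0.03 and 0.01 over all tested genes. Together the 7 hosts took 41.6, 45.1 and 54.3 CPM in the MT194 clones and 74.2 to 189 CPM in the other 12.

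**Figure D1:**
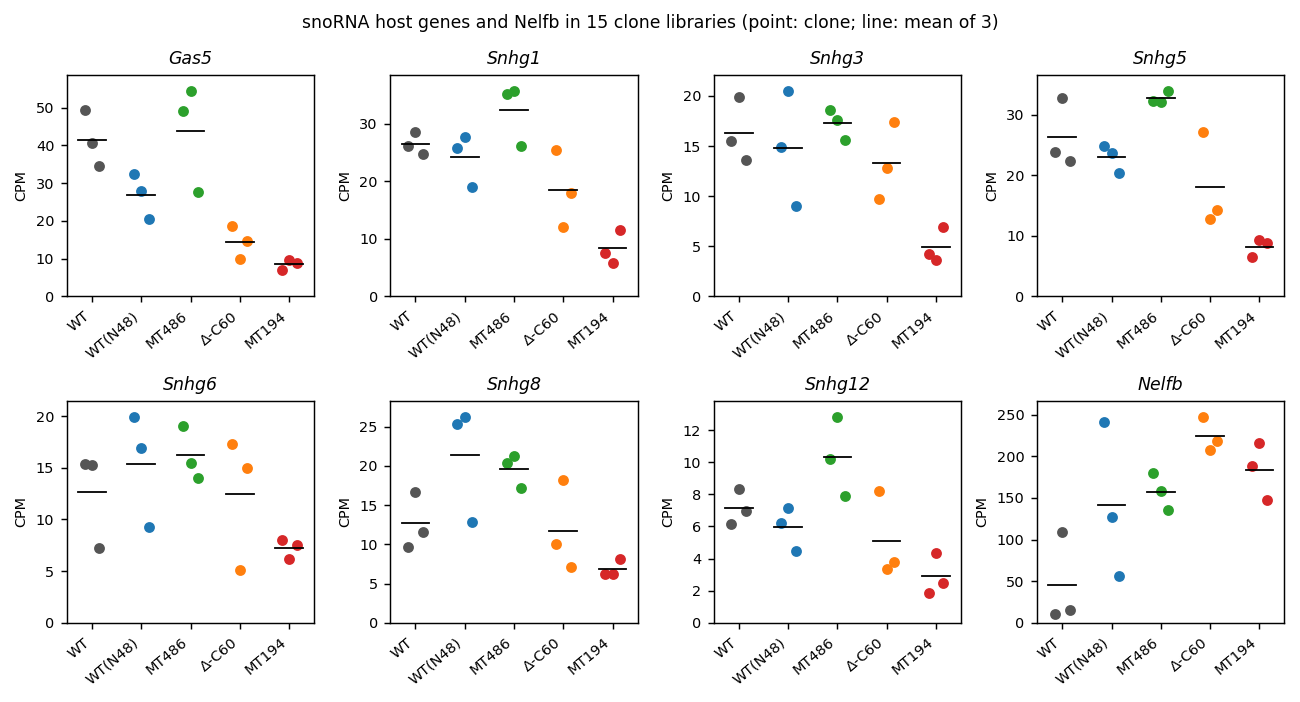
CPM of each host gene and of Nelfb (y axis, linear from 0) in the 15 clones by group (x axis); points are clones and lines are means of 3. Gas5 in MT194 clones sits between 7.10 and 9.68 CPM, below every other clone, while Nelfb in 2 of the 3 WT clones is at 10.3 and 15.5 CPM.

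Within the hosts, 8 snoRNAs had rows of their own, although poly(A) libraries are not made to capture mature snoRNAs. Snord22, inside Snhg1, had 22, 9 and 47 reads in the MT194 clones and 41 to 130 in the other clones. Snord47, inside Gas5, had 4, 11 and 2 reads against 6 to 39. Both rows were thus at the low end in the MT194 clones but overlapped the Δ-C60 clones, which had 10, 6 and 9 reads of Snord47 and 83, 41 and 48 of Snord22. Reads of unspliced host RNA and of the snoRNA cannot be told apart. Snora61, Snora16a, Snora44 and Snord99 in Snhg12 reached at most 18 reads in an MT194 clone, Snord87 in Snhg6 had 3 or 4, and Snora24 in Snhg8 had 0 in all 35 libraries.

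Genes that neighbour or overlap the hosts were read beside them. Slc3a2, a heavy chain of amino acid transporters, starts 106 bases from Snhg1 on the opposite strand, and its log2 difference with MT194 was −0.04 from WT(N48), −0.15 from WT and −0.29 from MT486. Zbtb37 overlaps the 5′ end of Gas5 on the opposite strand, with differences of −0.58, −0.24 and −0.20. Slc3a2 was thus nearly level where Snhg1 was lower. Rcc1, a chromatin-bound exchange factor for Ran, overlaps Snhg3 on the same strand, with differences of −0.28, −1.29 and −1.04, so values of Snhg3 are uncertain where reads could belong to either gene. Mcmdc2 overlaps the 3′ end of Snhg6 on the opposite strand and had at most 3 reads in any library, and how reads in the overlap were assigned is not given in the sources used here.

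Related gene lists were compared with the hosts in the MT194 clones, also as description. Of 11 other non-coding snoRNA hosts tested, 10 had a lower value than in WT(N48) clones, with a median of −1.06. The lowest were Snhg4 (−2.32), 1110038B12Rik (−1.74) and 1500012F01Rik (−1.59). Of 40 protein-coding hosts, whose exons encode mainly ribosomal and nucleolar proteins, 33 were lower, but with a median of −0.29. Rps12 (−1.14) and the nucleolin gene Ncl (−1.08) were at the low end of these. The difference between these lists was not tested. Of 19 genes for snoRNP proteins and their assembly factors, 16 were lower with a median of −0.44, among them Nop58 (−0.75) and Fbl, the methyltransferase of box C/D snoRNPs (−0.64).

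Proliferation markers were lower in 14 of 15 cases with a median of −0.35, for example Mki67 at −0.56. Of 18 nonsense-mediated decay factors 13 were lower, with a median of −0.22, for example Smg1 at −0.89. The 7 growth-arrest-specific genes, a list without Gas5, had a median of 0.06, with 5 higher and 2 lower values. Gas6 was at 3.61 with overlapping groups, Gas7 at 1.52 and Gas1 at 1.10, while Gas2 was at −1.23 and Gas2l3 at −0.81. The median over all 13223 genes was 0.00.

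**Figure D2:**
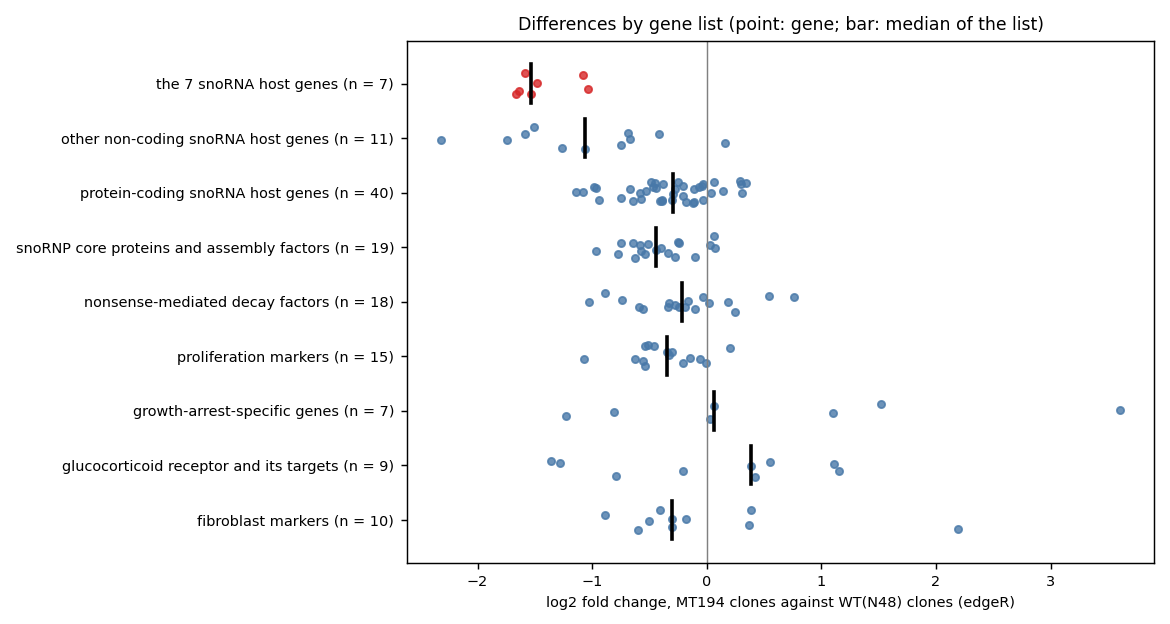
Log2 fold change of MT194 against WT(N48) clones (x axis, edgeR fit) for each tested gene of 9 lists (y axis); points are genes and bars are medians. The 7 hosts lie between −1.66 and −1.04 and the other non-coding hosts have a median of −1.06, while the protein-coding hosts have a median of −0.29.

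Comparisons among the remaining clones were tested. The MT194 clones are in neither group of these comparisons, but they were part of the same fit and entered its spread and scaling. The WT and WT(N48) clones against which Gas5 was low with MT194 are also the references here. These p-values are therefore not independent of the choice of genes. Gas5 was lower in Δ-C60 than in WT clones by −1.52 on the log2 scale (2.88-fold, SE 0.30, adjusted p = 0.0148) and was the only member called at adjusted p under 0.05 and a log2 change over 0.5. In that comparison 3.22% of all genes were called lower, and the groups also differ in labelled vector, pBabe for Δ-C60 and pLenti for WT. The call was lost without WT clone 1 (−1.41, adjusted p = 0.0670) and with only these groups in the fit (adjusted p = 0.0616). That last fit called 79 genes of any kind, against 1102 with all clones in the fit. Without WT clones 1 and 3 together, which leaves 1 WT clone, the difference was also −1.52 and its call cannot be judged. Without Δ-C60 clone 1, 2 members were called. Against WT(N48) clones the Gas5 difference of Δ-C60 was −0.90 (SE 0.29, 95% interval −1.53 to −0.27, adjusted p = 0.281), with no overlap between the groups. Gas5 was the only such member, where 5.63% of all genes lay wholly lower.

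MT486 clones showed no called difference from WT(N48) clones in any host, where 0.113% of all genes were called higher and 0.174% lower. Gas5 was 0.70 higher than in WT(N48) clones on the log2 scale (SE 0.29, adjusted p = 0.271) and 0.08 higher than in WT clones (95% interval −0.55 to 0.70, adjusted p = 0.974), and in that second comparison edgeR called 0% of all genes in either direction, against 69 genes with only these groups in the fit. Without WT clones 1 and 3 the difference from WT was 0.11 (SE 0.43, adjusted p = 0.995). WT(N48) clones had Gas5 values 0.63 below those of WT clones on the same scale, as a log2 change of −0.63 (SE 0.29, adjusted p = 0.238), where 1.17% of all genes were called higher and 0.930% lower. Without WT clones 1 and 3 that change was −0.61 (SE 0.42, adjusted p = 0.744). In these 3 comparisons and in Δ-C60 against WT(N48), edgeR and DESeq2 both called 0 of 7 members, and 1, 0, 1 and 2 members, in that order, had an unadjusted p under 0.05. In Δ-C60 against WT(N48) clones edgeR called 0% of all genes. DESeq2 called more genes than edgeR in all 4 comparisons, 584 for MT486 against WT(N48), 158 for MT486 against WT, 1169 for WT(N48) against WT and 220 for Δ-C60 against WT(N48). All 7 hosts had a lower value in Δ-C60 than in WT clones and than in WT(N48) clones, with 6 and 7 of them short of a call.

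In the populations Gas5 was set first by the replicate number, which the study's methods give as independent experiments. With EV it had 42.2 and 71.9 CPM in the first and second experiment after Ad-GFP, and 46.0 and 72.1 after Ad-Cre. With WT it had 37.2 and 57.6 CPM, then 31.0 and 49.0. With MT194 it had 34.8 and 77.3 CPM, then 27.1 and 41.1. The second experiment was higher each time. MT486 had 48.5 and 93.2 CPM, then 34.1 and 62.7, and DMT had 36.6 and 74.2 CPM, then 40.5 and 47.1. The group means ran from 70.9 ± 31.6 CPM (MT486 with Ad-GFP) to 34.1 ± 9.85 (MT194 with Ad-Cre, SD, n = 2). These SDs include the difference between experiments, and the ranges of all neighbouring groups in this order overlapped. Within each experiment MT194 with Ad-Cre was the lowest of the 10 groups and MT486 with Ad-GFP the highest.

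The difference between experiments was fitted with the replicate number as a block, a comparison added after the values had been seen. Gas5 was higher in the second experiment by 0.75 on the log2 scale (SE 0.07, adjusted p = 2.99e-07, edgeR) and in 10 of 10 groups. Snhg1 was higher by 0.55 (SE 0.05, adjusted p = 2.87e-08), also in 10 of 10 groups. These 2 of 7 members were called higher, where 19.0% of all genes were, and Snhg3 too was higher in all 10 groups, as were 22.8% of all genes. Snhg3 (0.23, adjusted p = 9.70e-04), Snhg5 (0.19, adjusted p = 0.00722) and Snhg12 (0.20, adjusted p = 0.0184) changed by less than the 0.5 set for a call. Snhg6 (−0.07) and Snhg8 (0.01) showed no called difference. The 2 genes called have 10 and 7 exons shorter than a read, against 0 or 1 in the others, and whether this bears on the difference was not tested.

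Other values moved with the experiment. Reads on no annotated gene made up 11.7 to 15.8% of assigned and unassigned reads in the first experiment and 15.2 to 21.3% in the second, higher in 9 of 10 groups. The 12 fibroblast markers summed to 24130 to 27378 CPM in the first and 28183 to 42644 CPM in the second, and 9 of the 11 tested were called higher. The part of either in the Gas5 difference was not tested.

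**Figure D3:**
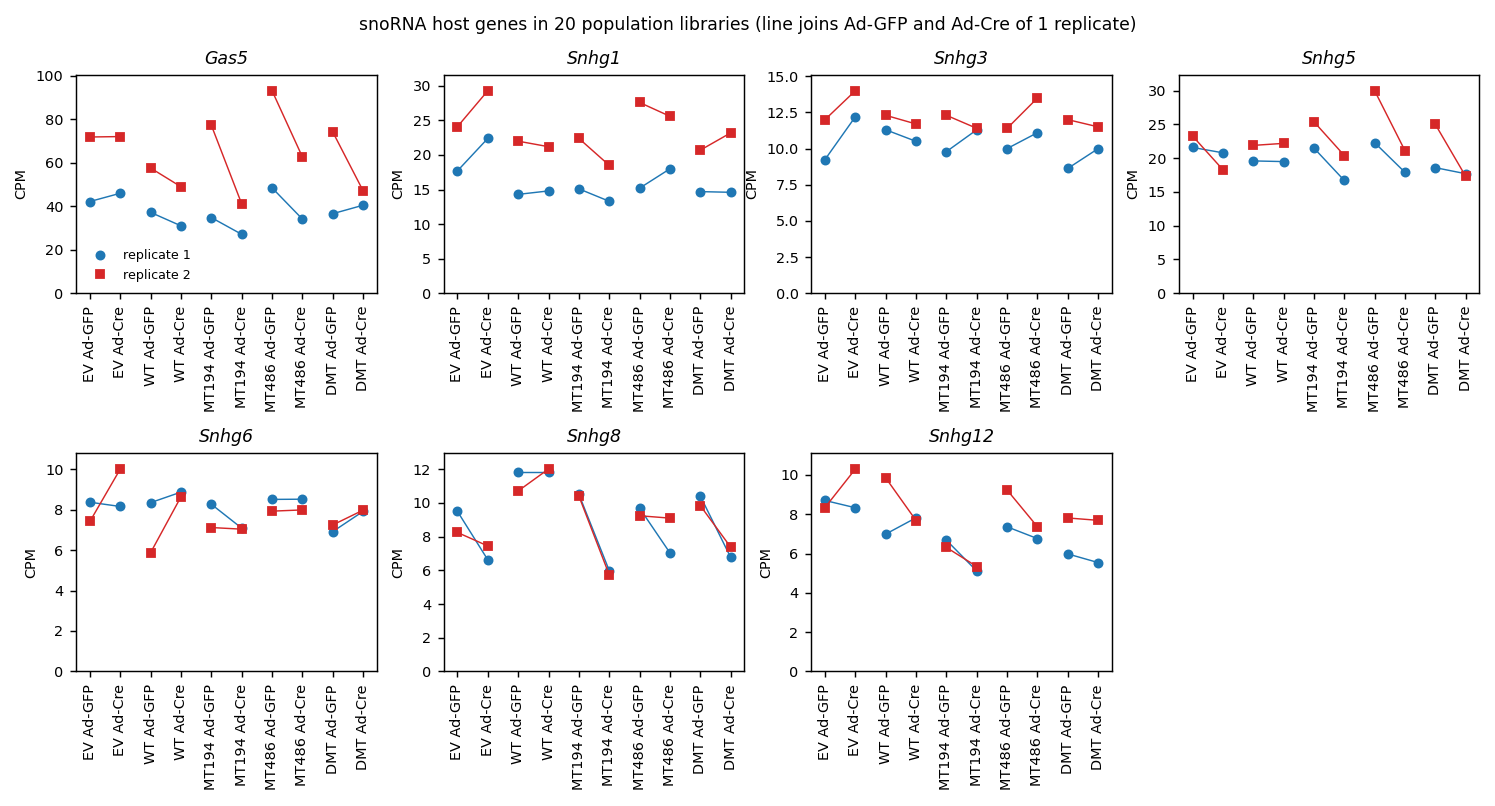
CPM of each host gene (y axis, linear from 0) in the 20 population libraries by construct and virus (x axis); circles are replicate 1, squares replicate 2, and lines join Ad-GFP and Ad-Cre of one replicate. Gas5 and Snhg1 lie higher in replicate 2 in all 10 groups, and Snhg8 falls after Ad-Cre with MT194 in both replicates.

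The effect of Ad-Cre, which removes the floxed Nelfb allele, was then tested in each population. Snhg8 was called in 2 of them. With MT194 it had 10.5 and 10.4 CPM after Ad-GFP and 5.98 and 5.73 after Ad-Cre, a fall of 1.78-fold (log2 −0.83, SE 0.15, adjusted p = 0.00667). With DMT it had 10.4 and 9.83 CPM, then 6.76 and 7.37, a fall of 1.43-fold (log2 −0.52, SE 0.15, adjusted p = 0.0385). It was the only one of 7 members called in either, where 2.33% and 5.34% of all genes were called lower. Both calls rest on the spread shared by all populations and were lost with only the groups compared in the fit. That fit called 0 genes of any kind with MT194 and 489 with DMT, so with MT194 it could not judge Snhg8. The MT194 call was also lost without its Ad-Cre replicate 2 (adjusted p = 0.0526) or its Ad-GFP replicate 1 (adjusted p = 0.0525), and the DMT call was lost without any one of its 4 libraries or without the filter on low counts.

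In the other populations the Snhg8 difference was −0.33 with EV (SE 0.15, adjusted p = 0.168), −0.23 with MT486 (SE 0.15, adjusted p = 0.558) and 0.08 with WT (95% interval −0.23 to 0.39, adjusted p = 1.00). Leaving out 1 library at a time moved the MT486 value between −0.43 and −0.06. The effect with MT194 minus that with EV was −0.50 (SE 0.21, adjusted p = 1.00), so the MT194 effect was not shown to differ from loss of Nelfb alone.

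Gas5 passed no threshold for Ad-Cre without the block. In EV populations 5.84% of all genes were called higher and 5.94% lower, and with MT486 1.28% were called lower. Its differences were 0.05 with EV, −0.25 with WT, −0.72 with MT194, −0.55 with MT486 and −0.34 with DMT, each with an SE of 0.50, and adjusted p-values from 0.570 to 1.00. Without the second Ad-GFP library of the same construct the difference was −0.03 with MT194 and −0.01 with MT486. With the replicate number as a block the SE was 0.16, and Gas5 was called lower with MT194 (−0.66, adjusted p = 0.00790) and with MT486 (−0.54, adjusted p = 0.0236). Under the block 7.43% and 6.57% of all genes were called lower in those comparisons. It was not called with EV (0.06, adjusted p = 0.772), WT (−0.25, adjusted p = 0.388) or DMT (−0.25, adjusted p = 0.229). The MT194 effect minus the EV effect was −0.72 under the block (SE 0.23, adjusted p = 0.157). Gas5 with MT194 fell in both experiments, from 34.8 to 27.1 and from 77.3 to 41.1 CPM.

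As a set, the 7 hosts had median log2 changes of 0.13 with EV, −0.02 with WT, −0.31 with MT194, −0.23 with MT486 and −0.06 with DMT, beside medians within 0.01 of 0 over all genes. In the differences from EV, edgeR called 0 of 7 members for every construct, with or without the block, and DESeq2 also called 0. Few genes were called at all there: without the block 0.398% higher and 0.283% lower for WT, and 0.00724% higher and 0% lower for each of MT194, MT486 and DMT. With the block the shares of all genes called higher and lower were 7.20% and 6.17% for WT, 0.456% and 0.522% for MT194, 1.46% and 1.22% for MT486, and 0.00724% and 0% for DMT. At an unadjusted p under 0.05 there was 1 member for MT194 and 0 for WT, MT486 and DMT. All 7 values were negative for MT194 minus EV and for DMT minus EV, comparisons that share the EV libraries.

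**Figure D4:**
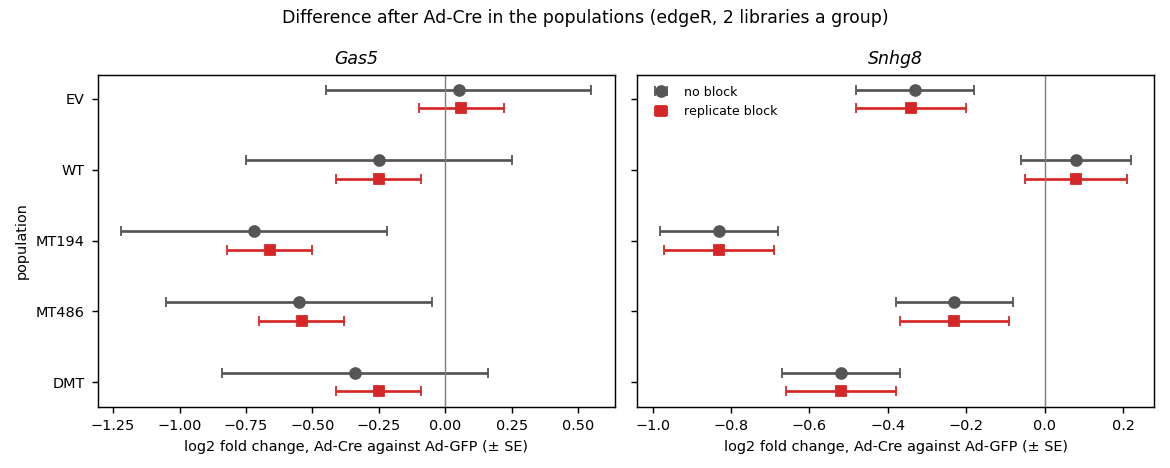
Log2 fold change from Ad-GFP to Ad-Cre (x axis) of Gas5 and Snhg8 in the 5 populations (y axis), from 2 libraries a group; circles are the fit without a block, squares the fit with the replicate block, and bars are ± SE. Bars of Gas5 shrink from 0.50 to 0.16 under the block, and Snhg8 lies lowest with MT194 at −0.83.

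Constructs were also compared with WT after Ad-Cre, which targets the floxed allele in all of them. Snhg8 was at 11.9 ± 0.190 CPM with WT (SD, n = 2, from 284 and 252 reads), against 5.98 and 5.73 with MT194, 6.76 and 7.37 with DMT and 7.03 and 9.09 with MT486. It was lower with MT194 (log2 −1.02, 2.03-fold, SE 0.15, adjusted p = 0.00558) and with DMT (−0.75, 1.68-fold, SE 0.15, adjusted p = 0.0164), where 0.826% and 1.42% of all genes were called lower. Nelfb was higher than WT in both libraries of MT194, MT486 and DMT in this comparison. Under the block, 1 of 3 tested markers of other cell types was called higher with MT194, and of 11 fibroblast markers 2 were called higher and 1 lower. With DMT 1 fibroblast marker was called higher and 2 lower under the block, and S100a4 was called lower without it (−1.30, adjusted p = 0.0120). The part of the Nelfb level or of these markers in the Snhg8 differences was not tested. With MT486 Snhg8 missed the threshold (−0.56, SE 0.15, adjusted p = 0.216) and was called with the block (adjusted p = 0.0159), where 0.0942% of all genes were called lower without and 2.51% with it. Both calls without the block were lost with only the groups compared, where 0 genes of any kind were called with MT194 and 102 with DMT. The MT194 call was lost without its replicate 2 (adjusted p = 0.0572) or WT replicate 1 (adjusted p = 0.0652), and the DMT call without any one of its 4 libraries.

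Snhg12 was lower with MT194 than with WT by −0.57 on the log2 scale (SE 0.21, adjusted p = 0.275), and was called under the block (adjusted p = 0.0198), where 4.90% of all genes were called lower. Gas5 differed from WT by −0.23 with MT194 (95% interval −1.31 to 0.85), 0.27 with MT486 and 0.13 with DMT, with adjusted p-values of 0.916, 1.00 and 0.946. After Ad-GFP, with the floxed allele still present, edgeR called 0 of 7 members for any construct against WT, as did DESeq2, and 0 had an unadjusted p under 0.05. Of all genes edgeR without the block called 0.0145% lower with MT486 there and 0% in any other direction or construct. DESeq2 called 6, 6 and 2 genes with MT194, MT486 and DMT, and edgeR with the block called 35, 8 and 19, so few genes of any kind were called. The Gas5 differences there were 0.24 with MT194, 0.58 with MT486 and 0.23 with DMT.

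Other non-coding snoRNA hosts were called in the same comparisons. 2410006H16Rik fell after Ad-Cre with MT194 (−0.71, adjusted p = 0.00926) and with MT486 (−0.61, adjusted p = 0.0327), and 1110038B12Rik fell with MT194 (−0.58, adjusted p = 0.0231), giving 2 of 11 called lower with MT194, beside 2.33% of all genes. Snhg9 rose with DMT (1.83, SE 0.53, adjusted p = 0.0439). Against WT after Ad-Cre, 3 of 11 were called lower with MT194, beside 0.826% of all genes, the third being 1500012F01Rik (−0.74, adjusted p = 0.0163). With DMT 2 of 11 were called lower, beside 1.42% of all genes, 2410006H16Rik (−0.71, adjusted p = 0.0131) and 1110038B12Rik (−0.53, adjusted p = 0.0486). Some of these hosts were called higher under the replicate block. After Ad-Cre in EV populations 3 of 11 rose and 0 fell, and against WT after Ad-Cre 1 rose and 3 fell with MT194 and 2 rose and 3 fell with DMT, where 6.04% of all genes were called higher and 4.90% lower with MT194, and 7.57% and 6.66% with DMT. Of 40 protein-coding hosts 21 had a higher and 19 a lower value after Ad-Cre in EV populations, with a median of 0.02, and 3 rose and 0 fell, beside 5.84% and 5.94% of all genes. These were Nop56 (1.33), Ppan (0.68) and Dkc1 (0.64), with adjusted p-values of 0.00101, 0.0298 and 0.0412. Under the block 6 rose and 7 fell, beside 12.4% and 13.0% of all genes.

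Some genes for snoRNP proteins were called after Ad-Cre. Of 19, 6 rose and 1 fell in EV populations, with a list median of 0.44, 6 rose and 1 fell with DMT, and 1 rose and 0 fell with MT194 and with MT486 each. With the replicate block 9 rose with EV, 9 with DMT, 2 with MT194 and 6 with MT486. Of all genes 5.84% were called higher and 5.94% lower with EV, and 4.58% and 5.34% with DMT, while 1.88% with MT194 and 1.14% with MT486 were called higher. Under the block 12.4% were called higher with EV, 11.2% with DMT, 7.08% with MT194 and 5.55% with MT486. In EV cells Nop56, a core protein of box C/D particles, was up by 1.33 (SE 0.20), Rrp9, which binds the U3 snoRNA, by 0.93 (SE 0.15, adjusted p = 0.00157), and Nolc1, a chaperone of snoRNPs, by 0.79 (SE 0.17, adjusted p = 0.00963). In WT populations 0 of 19 were called by edgeR, and 1 rose under the block, where 0.0217% and 1.34% of all genes were called higher. None of the 7 host RNAs was called in EV populations by edgeR or DESeq2, where 1 had an unadjusted p under 0.05 and 5 of them had a higher and 2 a lower value.

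Lists tied to Gas5 by name or binding were measured in the same cells. Of the 9 tested among the glucocorticoid receptor and its targets, 3 rose and 1 fell after Ad-Cre in EV populations. Of all genes 5.84% were called higher there and 5.94% lower. The kinase gene Sgk1 (1.77, SE 0.21, adjusted p = 2.10e-04), Dusp1 (1.45, SE 0.20, adjusted p = 5.72e-04) and Errfi1 (0.86, SE 0.17, adjusted p = 0.00602) rose. Tsc22d3 was lower (−0.81, adjusted p = 0.0435). Under the replicate block 5 of the 9 rose and 1 fell, where 12.4% of all genes were called higher and 13.0% lower. Of the 7 growth-arrest-specific genes 3 fell without the block: Gas7 (−1.74, adjusted p = 0.0290), Gas2 (−1.58, adjusted p = 0.00357) and Gas2l3 (−1.28, adjusted p = 0.0192). Under the block 5 fell and 0 rose. Upf3a, a nonsense-mediated decay factor, was the only one of 18 called without the block (−0.66, adjusted p = 0.0356). Under the block 2 of the 18 were called lower and 0 higher. Gas5 itself had a log2 change of 0.05 in these cells. Of 15 proliferation markers 11 had a lower and 4 a higher value in EV populations, with a median of −0.61, and Ccnb1 was called (−1.30, adjusted p = 0.0480). Under the block 2 of the 15 were called lower and 0 higher with EV. In WT populations 15 of 15 had a higher value and 0 were called without the block. Under it 1 was called higher there, where 1.34% of all genes were. Of 11 fibroblast markers 8 had a lower and 3 a higher value with EV, and S100a4 was called without the block (−1.47, adjusted p = 0.00171). Under the block 6 of the 11 were called lower and 2 higher, beside 13.0% and 12.4% of all genes. The part of these markers in the list values was not tested.

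The genes most like Gas5 were found by Pearson correlation of log2 CPM over genes with a mean of 10 CPM or more, as a description. Over the 20 population libraries, among 9439 genes, these were Ccnl2 (0.953), Clk2 (0.953), Ewsr1 (0.948), Ap4e1 (0.943) and Sugp2 (0.943), libraries that share the replicate difference above. Snhg1 stood at 0.843, Snhg5 at 0.733, Snhg12 at 0.572, Snhg3 at 0.570, Snhg8 at 0.151 and Snhg6 at −0.079, of which Snhg12, Snhg8 and Snhg6 lie under the minimum of 10 CPM and have no rank. Over the 15 clones, among 9461 genes, the first 5 were Fancc (0.928), Snhg1 (0.906), Snhg5 (0.905), Secisbp2 (0.903) and Cetn3 (0.900). Members made up 2 of these 5, and the value for Snhg8 was 0.634 in the clones against 0.151 in the populations. The clone values include the MT194 clones that chose the set.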

How the data were processed

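The authors deposited 1 table of raw read counts per gene for each of 35 libraries (poly(A), stranded kit, 50-base single reads), made by aligning with Bowtie2 to mm10, keeping reads of mapping quality 30 or more and counting with HTSeq. Whether counting used strand, and which annotation, is not given in the sources used here, so reads of overlapping and antisense genes cannot be told apart. Per the study's methods the authors tested with DESeq2. Here libraries were grouped by their labels, genes of low count were removed with filterByExpr, and the counts were tested with edgeR 4.0.16 (TMM, quasi-likelihood, robust) in R 4.3.3, populations and clones in separate fits of all their groups, with Benjamini-Hochberg adjustment over all genes tested. A gene was called where its log2 fold change exceeded 0.5 in size and its adjusted p was below 0.05. CPM use TMM-scaled reads on genes, except those of marker genes, which use plain totals of reads on genes, and the clone and population scales are separate. Rows for reads on no gene (9.14 to 21.3% of reads) were left out. DESeq2 1.42.0 and the settings in the closing section were alternatives. Tests on simulated data used the real mean of each gene over all libraries, with no difference between experiments, and the fit without the block. They recovered 84.0% of genes changed 4-fold and 31.0% of those changed 2-fold in the MT194 Ad-Cre comparison of 13805 genes. In Δ-C60 against WT(N48) clones of 13223 genes they recovered 75.0% and 19.0%. These shares do not describe the fit with the block on the real, paired libraries.

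The replicate numbers paired the populations: the study's methods describe independent experiments, and deviations of same-numbered libraries from their group means correlated over 0.1 in 45 of 45 pairs of groups (0.420 to 0.730). Libraries of a group differed by more than sampling noise (chi-square per gene of 5.06 or more over 25 pairs). Without the block the p-values of populations measure the spread between 2 experiments and those of clones between 3 clones. That spread is estimated over all groups of a fit. With the block the shared difference between experiments is taken out, and the p-values of populations measure the spread that remains. The members and gene lists were chosen with earlier results of these data known. Genes named beyond the members were Nelfb, hosted snoRNAs, neighbours, cell-type markers, the 5 genes most like Gas5, and called genes of the lists. The called genes were as a rule up to 3 per list with the largest changes, and not all are named. In the MT194 clone comparisons, which have no calls, list genes named were chosen after their values were seen. Of the listed genes, Snhg15, Snhg16, Zfas1 and Epb41l4aos had no row and were not used. Positions and exons are from GENCODE vM21 (GRCm38), and promoters are from RefSeq.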

Additional observations from a re-analysis of the deposited data

How the results depend on the processing

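Among the settings tried, those changing a called count were these. With only the groups compared in the fit, 0 of 7 members were called in every comparison between groups with a call. Gas5 in Δ-C60 against WT clones was −1.56, no longer called. Over all genes this setting called 0 after Ad-Cre with MT194 and 0 for MT194 against WT, against 582 and 191 with all groups. With MT194 it therefore could not judge a member. For Δ-C60 against WT clones it called 79 genes, against 1102. This setting was not run for the difference between experiments. With a log2 threshold of 1, 0 members were called after Ad-Cre with MT194 or DMT and for DMT against WT, and without the filter on low counts 0 were called after Ad-Cre with DMT. DESeq2 called 1 for MT486 against WT after Ad-Cre, where edgeR called 0. Without both WT clones of low Nelfb 1 WT clone is left, so calls cannot be judged, and Gas5 in Δ-C60 against WT was −1.52.

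The replicate block called 2 members after Ad-Cre with MT194, 1 with MT486, 2 for MT194 against WT and 1 for MT486 against WT after Ad-Cre, with Gas5 at −0.66 (MT194) and −0.54 (MT486) after Ad-Cre. It changed no other population call of a member. Over all genes it raised the calls after Ad-Cre from 1626 to 3502 with EV, from 582 to 2003 with MT194 and from 334 to 1673 with MT486. Clones share only a number (1 of 10 pairs of groups over 0.1), and there the block changed no call of a member.

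Leaving out 1 library at a time moved Gas5 after Ad-Cre between −0.31 and 0.48 with EV, −0.60 and 0.10 with WT, −1.18 and −0.03 with MT194, −1.06 and −0.01 with MT486 and −0.76 and 0.26 with DMT. Its difference of Ad-Cre effect from EV ranged from −0.73 to 0.06 for WT, −1.23 to −0.08 for MT194, −1.10 to −0.05 for MT486 and −0.82 to 0.21 for DMT. Against WT after Ad-Cre it ranged from −0.56 to 0.12 with MT194, −0.23 to 0.65 with MT486 and −0.16 to 0.48 with DMT, and after Ad-GFP from −0.45 to 0.70 with MT194, 0.03 to 0.97 with MT486 and −0.37 to 0.64 with DMT. For MT486 against WT clones it ran from −0.11 to 0.33, and for Δ-C60 against WT clones from −1.76 to −1.31. The counts of called members ran from 0 to 1 after Ad-Cre with MT194 and for MT194 against WT, 0 to 0 with DMT in both, and 0 to 2 for Δ-C60 against WT clones. For the MT194 clones Gas5 stayed between −1.81 and −1.50 against WT(N48), −2.41 and −2.15 against WT and −2.62 and −2.18 against MT486. Between experiments Snhg8 ranged from −0.03 to 0.03, and it was −0.09 in Ad-GFP libraries alone, while Snhg6 was 0.04 in Ad-Cre libraries alone. Gas5 ranged from 0.71 to 0.81 there. The population fits other than those between experiments had no block, so leaving out 1 library also unbalanced the 2 experiments. Their ranges therefore include part of the difference between experiments. Other causes of these changes were not tested.

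Counting positions for an unspliced read in place of merged exon length moved Gas5 from rank 1 to rank 3 of 7 in the populations. By Spearman correlation 0 of the 5 genes most like Gas5 in the populations and 2 of 5 in the clones were the same. With 2 libraries a group, Gas5 differences had an SE of 0.50 without the block, so a change of 2-fold was within the 95% interval of most population comparisons, and counts of hosted snoRNAs were too low for a test.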
